A study of Rattus norvegicus with 12 samples.

Results

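The wild-type baseline of N27 cells is the transcriptome of the 5 unedited cultures in a study of 12, described here on its own and with no comparison of genotypes. N27 is a rat line of midbrain origin, immortalised with a viral large T antigen, and its cell type is given in the labels as dopaminergic neuron. The other 7 cultures had the voltage-dependent anion channel removed with CRISPR and were not used here. The 5 wild-type arrays were chosen by their titles and are called WT 3, WT 5, WT 6, WT 7 and WT 8 after their numbers in the labels. Total RNA from cultures grown to 80% confluence was labelled with Cy3 and hybridised to 1-colour Agilent arrays. No treatment, passage number, clone, differentiation step or control guide is given for these cultures in the sources used here, nor whether they were grown independently, so the spread below is that between these samples and may in part be technical. All 5 share the genotype WT.

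Dopaminergic neurons make their transmitter from tyrosine. Tyrosine hydroxylase (Th), which needs the cofactor tetrahydrobiopterin, makes L-DOPA, aromatic amino acid decarboxylase (Ddc) turns it into dopamine, a vesicular transporter (Slc18a2) packs it into vesicles, a plasma membrane transporter (Slc6a3) takes it up again, and monoamine oxidases break it down. In the midbrain this set of genes depends on transcription factors such as Nr4a2, Pitx3, Lmx1a and En1, and Th is a classic target of cAMP signalling through a cAMP response element in its promoter.

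That element was looked for in the promoters of the neuronal genes, from 250 bases before to 50 bases after each start site as RefSeq gives it on the GRCr8 build. These are the stretches upstream of the start in which the full palindromic element TGACGTCA was found among the dopamine, neuronal and granule genes, each read in the direction of its gene, with the element in capitals. They are shown because carriers of the same 8 letters differed in whether their transcript was detected in the 5 cultures.
Th: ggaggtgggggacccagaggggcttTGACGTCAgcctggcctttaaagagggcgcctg
Slc18a2: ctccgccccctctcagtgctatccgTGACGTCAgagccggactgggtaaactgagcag
Vgf: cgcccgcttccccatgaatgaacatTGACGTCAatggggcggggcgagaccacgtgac
Scg2: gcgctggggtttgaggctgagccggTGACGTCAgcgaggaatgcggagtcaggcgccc
Syn1: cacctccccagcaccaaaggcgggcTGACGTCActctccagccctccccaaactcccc

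The Th stretch lies at chr1:207508255-207508312 on the minus strand, with the element ending 61 bases before the start of this gene. The Slc18a2 stretch lies at chr1:268399944-268400001 on the plus strand and that of Vgf, a granule protein, at chr12:25277078-25277135 on the minus strand, with the element 44 and 82 bases before the start. For Scg2, which encodes secretogranin II, it is chr9:88256957-88257014 on the minus strand, 115 bases before the start, and for Syn1, synapsin I, chrX:3725530-3725587 on the plus strand, 182 bases before it. The element was also found in the window of Sst, past its start. It was held by 2 of the 15 windows of the dopamine genes, 1 of 14 of the neuronal cytoskeleton and synapse genes and 3 of 14 of the granule and neuropeptide genes, and by 1.83% of all 33469 promoter windows. Th and Vgf were detected on all 5 arrays, Slc18a2 on 3, and Scg2, Syn1 and Sst on 0. A match of letters is a description and not a measured binding site. The motif was chosen after the levels had been seen.

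Each array carried 58717 spots that are not controls, for 45598 probes and 36174 gene names. A level is given below as the log2 signal of a gene's brightest probe relative to the 75th percentile of its own array, so a level of 0 is that percentile and a difference of 1 is 2-fold. Levels of different genes come from different probes and are not compared. A gene counts as expressed where its probe was well above background on all 5 arrays, which held for 11614 genes, 32.1% of all, and as not detected where it was so on none, which held for 19820 genes, 54.8%. The remaining 4740 genes were detected on 1 to 4 arrays. For the list genes called not detected below, no other probe of the gene was well above background either. A gene that was not detected has only an upper bound, and the lowest level detected was -2.20, -2.79, -1.75, -1.24 and -2.53 in WT 3, WT 5, WT 6, WT 7 and WT 8.

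The arrays differed in brightness. The 75th percentile of the processed signal was 54.5, 96.4, 39.6, 24.9 and 83.8 in WT 3, WT 5, WT 6, WT 7 and WT 8, a span of 3.87-fold, and no spot was saturated. The number of genes detected followed the same order, from 12066 on WT 7 to 15484 on WT 5. Of the 1281 genes detected on 4 arrays, 963 were missed on WT 7, the dimmest array. Of the 1422 detected on 1 array, 688 were detected on WT 5, the brightest. WT 3 and WT 8 lay on slide 1, WT 5 on slide 2, and WT 6 and WT 7 on slide 3, which was scanned on another day than slides 1 and 2.

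WT 3 stood apart from the other arrays, and for some of the results that rest on it a value without it is given. Over the expressed genes its Pearson correlation with the others was 0.944 to 0.966, against 0.971 to 0.993 among WT 5, WT 6, WT 7 and WT 8. It lay more than 1 above all 4 other arrays in 220 genes and more than 1 below all of them in 213. WT 7 did so in 33 and 58 genes, and the other arrays in 0 to 4 and in 6 to 18. WT 8 shared the slide with WT 3, and their median absolute difference was 0.37, against 0.14 between WT 5 and WT 8 from different slides and 0.27 between WT 6 and WT 7 from the same slide.

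**Figure D1:**
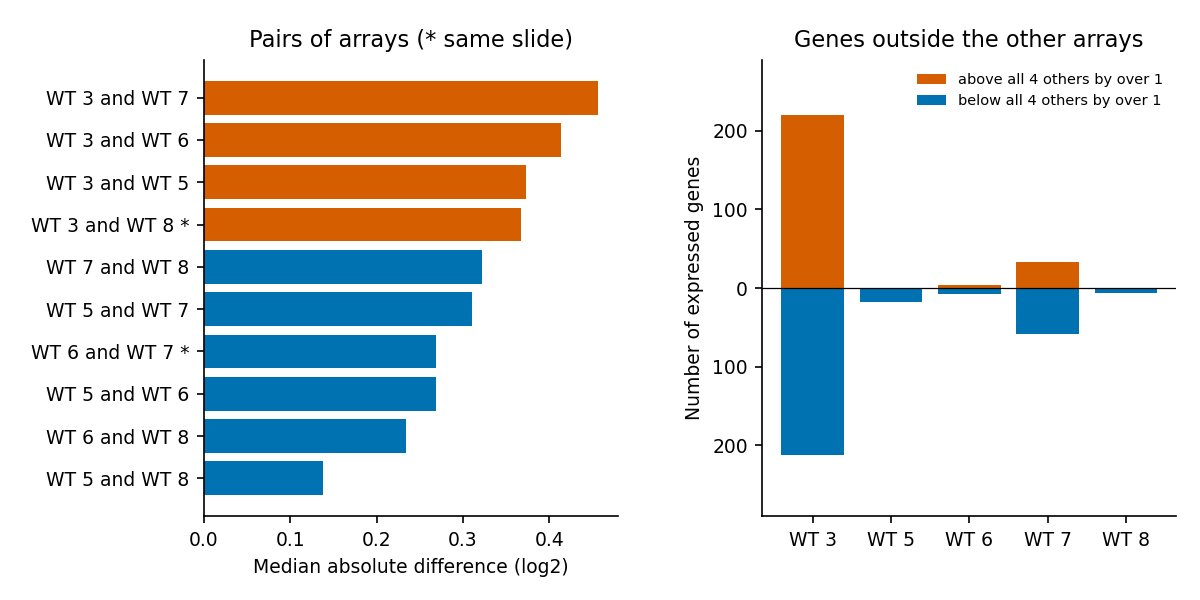
Left, the median absolute log2 difference between each pair of arrays over 11614 expressed genes, with pairs that hold WT 3 in orange, and right, the number of expressed genes in which 1 array lies more than 1 above or below all 4 others. The 4 pairs with WT 3 have the widest differences, 0.37 to 0.46, and WT 3 has 433 genes outside the others, against 91 for WT 7.

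Th was expressed in every wild-type culture. Its level was 0.62, 0.32, 0.50, 0.21 and 0.73 in WT 3, WT 5, WT 6, WT 7 and WT 8, a mean of 0.47 ± 0.21 (SD, n = 5). The cultures thus lay within 1.43-fold of each other, with WT 7 lowest and WT 8 highest. Gch1, the first enzyme of tetrahydrobiopterin synthesis, was expressed in all 5 as well, at 0.19, 0.28, -0.05, 0.61 and 0.11 in WT 3, WT 5, WT 6, WT 7 and WT 8. Here WT 7 was the highest, and the range was 1.58-fold. Spr, which completes the cofactor, averaged -0.12 ± 0.16 (SD, n = 5), and Qdpr, which recycles it, 4.56 ± 0.22.

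The step from L-DOPA to dopamine and the handling of the finished transmitter were detected less completely. Ddc was well above background on 1 of the 5 arrays, WT 8. Slc18a2 was detected on 3, at -1.55, -0.92 and -0.94 in WT 5, WT 6 and WT 8, and was not well above background in WT 3 or WT 7. Slc6a3, the dopamine transporter that defines mature dopaminergic terminals, was not detected on any array, and neither were Slc18a1, Maob or Dbh, which makes noradrenaline from dopamine. Maoa, the other monoamine oxidase, lay at -1.51, -1.15, -1.28 and -1.49 in WT 3, WT 5, WT 6 and WT 8 and was not well above background on WT 7, where the lowest level detected was above 3 of these values. In all, 7 of the 16 dopamine genes were expressed, 5 were detected on some arrays and 4 on none. The shares expressed and not detected were 43.8% and 25%, beside 32.1% and 54.8% of all genes.

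Another pair of genes of this list had a wider spread. Gchfr, which encodes the feedback regulator of GTP cyclohydrolase, read 2.60 in WT 3 and 0.98, 1.13, 0.97 and 0.97 in WT 5, WT 6, WT 7 and WT 8. Aldh1a1, an aldehyde dehydrogenase of a subset of midbrain dopamine neurons, read 1.94 in WT 3 and -0.22, 0.03, 0.10 and -0.07 in the same 4. In both, WT 3 was high and the other 4 cultures lay within 0.31 of each other. Without WT 3 the SD dropped from 0.71 to 0.08 for Gchfr and from 0.90 to 0.14 for Aldh1a1.

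**Figure D2:**
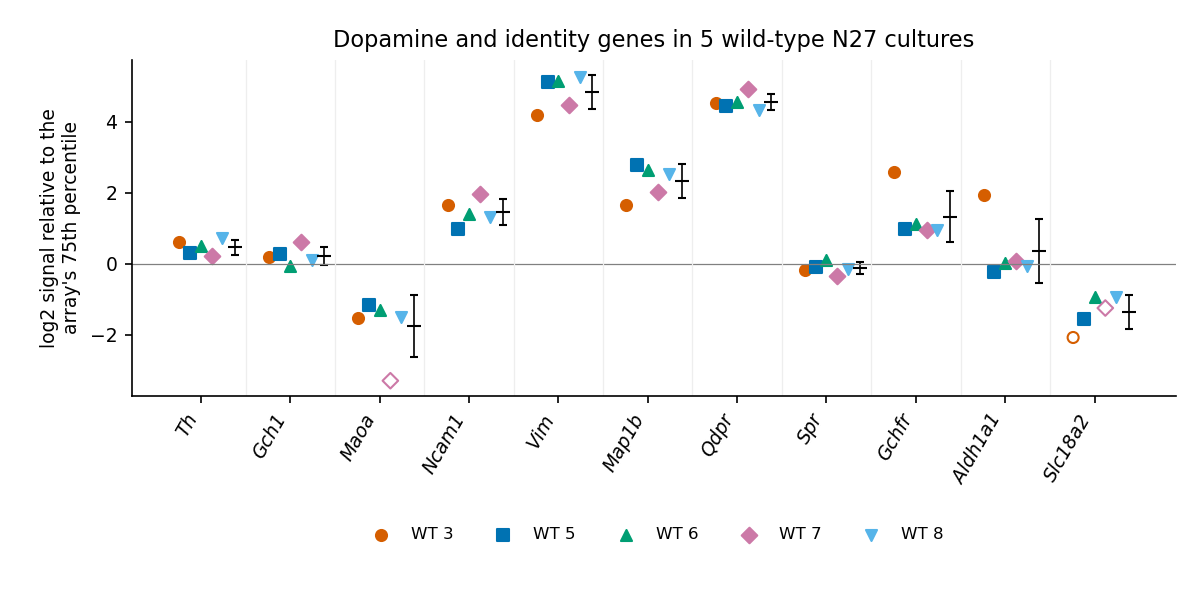
Log2 level relative to each array's 75th percentile for the 6 marker genes and further dopamine genes, 1 point per culture, with filled points well above background and open points not; bars are mean ± SD over all 5 values. Th, Gch1, Qdpr and Spr lie close together, WT 3 is apart in Gchfr and Aldh1a1, and heights are not comparable between genes.

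Of the transcription factors that specify midbrain dopamine neurons, 11 were measured and 0 were expressed on all 5 arrays, beside 32.1% of all genes. The share not detected was 63.6% in this list and 54.8% over all genes. Pitx3, Lmx1a, En1, En2, Foxa2, Otx2 and Msx1 were not detected on any. Nr4a2, the nuclear receptor needed for Th expression in the midbrain, was detected on 4 arrays, at -1.79 to -1.60, all near the lower end of what the arrays could show, and was not well above background on WT 7. Lmx1b and Foxa1 were detected on 1 array each. Set against the labelled cell type, Th and the cofactor genes Gch1, Spr and Qdpr were detected on every array and Pts, of the same pathway, on 2, while Slc6a3, Pitx3, Lmx1a and En1 were not well above background on any.

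Markers of other transmitters were not detected at all. This held for each of the 15 measured genes, among them markers of GABA (Gad1, Gad2, Slc32a1), glutamate (Slc17a6, Slc17a7, Slc17a8), acetylcholine (Chat, Slc18a3), serotonin (Tph1, Tph2, Slc6a4), noradrenaline (Slc6a2), glycine (Slc6a5) and histamine (Hdc). Over all genes the share not detected was 54.8%.

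Of the 23 genes of the neuronal cytoskeleton and synapse, 6 were expressed and 16 were not detected, 26.1% and 69.6% beside 32.1% and 54.8% of all genes. Ncam1, the neural cell adhesion molecule, read 1.65, 0.99, 1.39, 1.96 and 1.33 in WT 3, WT 5, WT 6, WT 7 and WT 8. Map1b, a microtubule protein of growing axons, read 1.67, 2.79, 2.65, 2.03 and 2.54 in the same order. Ncam1 was lowest in WT 5 and highest in WT 7 (WT 6 on its second probe), while Map1b was lowest in WT 3 and WT 7, and the 5 cultures spanned 1.96-fold and 2.18-fold. Mapt (tau) was expressed with a wider spread, from -1.42 in WT 3 to 0.18 in WT 7. Eno2, the neuronal enolase, averaged 2.53 ± 0.33 (SD, n = 5), and the vesicle fusion proteins Stx1a and Vamp2 averaged 1.05 ± 0.41 and 2.87 ± 0.26. The genes not detected included Map2, Dcx, Stmn2, Gap43, the 3 neurofilament chains Nefl, Nefm and Nefh, Rbfox3, which encodes the NeuN antigen, and Syp, Syn1, Snap25 and Syt1 of the synaptic vesicle machinery. Tubb3, the neuronal tubulin, was detected on 3 arrays.

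Among 11 genes of neural progenitors, 4 were expressed, Vim, Nes, Hes1 and Notch1. This was 36.4%, near the 32.1% of all genes, and 54.5% were not detected, beside 54.8% of all genes. Vim, an intermediate filament of progenitors and of mesenchymal cells alike, read 4.18, 5.12, 5.14, 4.47 and 5.25 in WT 3, WT 5, WT 6, WT 7 and WT 8. WT 3 and WT 7 were the lowest, an order that was not counted over all genes. Nes (nestin) averaged 0.87 ± 0.38 (SD, n = 5) and the receptor Notch1 0.93 ± 0.56. Hes1, a target of Notch, was lower in WT 3, at -1.54, than in the other 4, at -0.65 to -0.33. Sox2 was detected on 3 arrays, and Pax6, Fabp7, Msi1, Prom1, Hes5 and Sox11 on 0.

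Of the 18 genes of the regulated secretory pathway, 4 were expressed, 22.2% beside 32.1% of all genes, and 12 were not detected, 66.7% beside 54.8%. Expressed were Pam, which amidates peptides, the neuropeptides Npy and Cck, and Vgf. Npy read -0.18, 0.41, 0.15, 0.41 and -0.05 in WT 3, WT 5, WT 6, WT 7 and WT 8, and Vgf -0.86, -0.34, -0.66, -0.82 and -0.37. Both varied by 1.5-fold or less, with WT 3 lowest in each. Pam averaged 1.96 ± 0.10 (SD, n = 5) and Cck -0.67 ± 0.35. The granins Chga, Chgb, Scg2, Scg3 and Scg5 and the convertases Pcsk1 and Pcsk2, which cut prohormones, were not detected.

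Markers of cell types other than neurons were looked at in the same way. They are read in whole cultures, in which fewer cells of a type and less RNA per cell cannot be told apart. Of 18 mesenchymal and matrix genes, 9 were expressed, among them the fibroblast-associated genes Fn1 (fibronectin), Sparc, S100a4, Prrx1, Pdgfrb, Acta2 and Tagln. That was 50%, beside 32.1% of all genes, and 33.3% were not detected, beside 54.8% of all genes. S100a4 read 5.25 in WT 3 and 7.34, 7.14, 7.31 and 7.23 in WT 5, WT 6, WT 7 and WT 8, and Fn1 read 4.76 and 5.76, 5.93, 6.05 and 5.69. Both were lowest in WT 3, although on the second probe of S100a4 WT 3 and WT 7 were close, at -0.81 and -0.66. Sparc, a matrix glycoprotein, was highest there, at 5.42 against 4.54 to 4.81. Dcn, Lum, Cdh11, Twist1, Snai2 and Cdh2, which also belong to mesenchymal programmes, were not detected.

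The collagen chain Col1a1 split the cultures in another way. Its level was 0.72, 0.77 and 1.03 in WT 3, WT 6 and WT 7, against -0.98 in WT 5 and -0.60 in WT 8. The groups of 3 and 2 do not overlap, and WT 3 and WT 8 share a slide. The share of all genes with this split is not given here. Its partner chain Col1a2 was detected on 3 arrays and Col3a1 on 4.

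The lists for glia, epithelium, endothelium and immune cells each held expressed genes and defining genes that were not detected. In the astrocyte list and in the microglial and macrophage list 4 of 10 genes were expressed and 6 of 10 were not detected, beside 32.1% and 54.8% of all genes. Of the 10 astrocyte genes, Gfap, Aqp4, Slc1a2, Slc1a3, S100b and Aldh1l1 were not detected, whereas Glul (glutamine synthetase), Gja1 (connexin), Slc4a4 and Fgfr3 were expressed. Glul read 2.61 in WT 3 and 3.82 to 4.61 in the others. Of the oligodendrocyte and Schwann cell genes, 1 of 10 was expressed, Cnp, and Sox10, Olig1, Olig2 and Mbp were not detected. In the microglial and macrophage list 4 of 10 were expressed, Cd68, Cx3cr1, Tmem119 and Cd14, while Ptprc, the common leukocyte antigen, and Itgam, Csf1r, Aif1, P2ry12 and Tyrobp were not detected. Cx3cr1, the fractalkine receptor, averaged 1.89 ± 0.29 (SD, n = 5) and Cd14, a coreceptor for lipopolysaccharide, 1.86 ± 0.54. Of 7 endothelial genes Vwf alone was expressed, at 4.15 ± 0.21, and Pecam1, Kdr, Tek, Cldn5 and Tie1 were not detected. Of 10 epithelial genes Cldn3 alone was expressed, and Epcam, Cdh1, Krt8 and Krt18 were not detected.

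**Figure D3:**
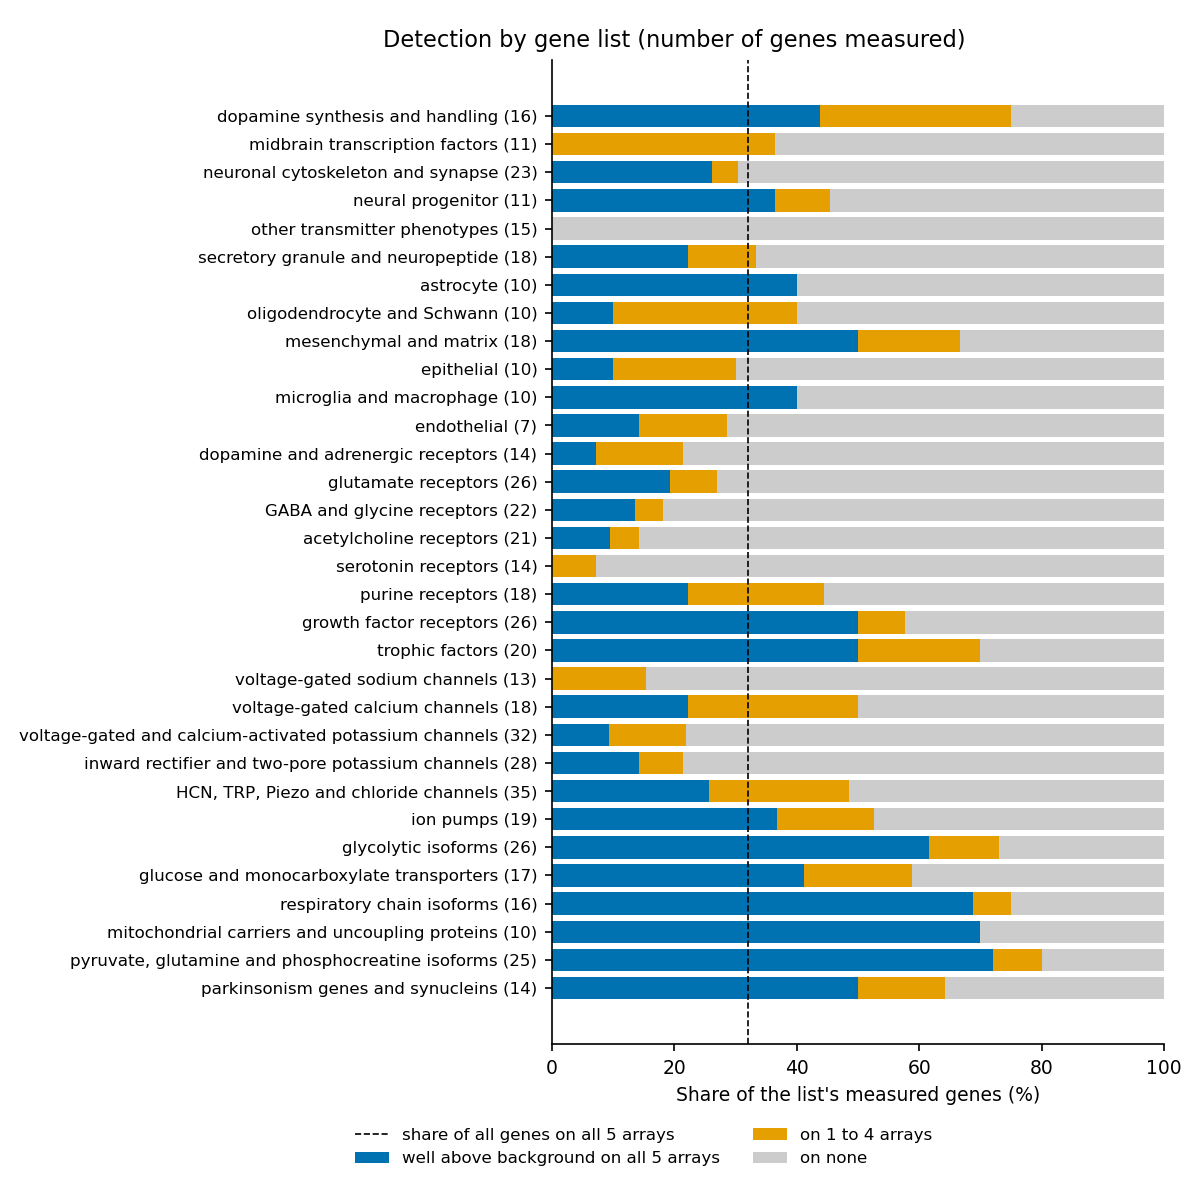
Share of each gene list that was well above background on all 5 arrays (blue), on 1 to 4 (orange) or on none (grey), with the number of measured genes in parentheses and the share over all genes, 32.1%, as a dashed line. Metabolic lists lie to the right of the line, and lists of transmitter receptors and of sodium and potassium channels to its left.

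Receptors for classical transmitters were sparse. The share expressed was 7.1% for dopamine and adrenergic, 19.2% for glutamate, 13.6% for GABA and glycine and 9.5% for acetylcholine receptors. The receptor and ligand lists together also hold purine receptors, growth factor receptors and trophic factors. Over all of these lists 38 of 161 genes were expressed, 23.6%, against 32.1% of all genes. None of the 5 dopamine receptors was expressed, since Drd1, Drd2, Drd3 and Drd4 were not detected and Drd5 was detected on 1 array. Of the 9 adrenergic receptors Adra2b, which couples to the inhibitory G protein, was the only one expressed. It read 0.62, 0.33, -0.51, -0.18 and 0.26 in WT 3, WT 5, WT 6, WT 7 and WT 8, with both arrays of slide 3 below the other 3. They lay below the other 3 in 1688 of all 11614 expressed genes. Of 14 serotonin receptors 0 were expressed.

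Of the 26 glutamate receptor genes, 5 were expressed and 19 were not detected, 19.2% and 73.1% beside 32.1% and 54.8% of all genes. The NMDA receptor needs the Grin1 subunit together with a Grin2 subunit, and of these Grin1 and Grin2d were expressed. Grin2d read 4.27, 3.80, 3.44, 3.12 and 3.95 in WT 3, WT 5, WT 6, WT 7 and WT 8, while Grin1 lay near the detection limit, from -1.64 in WT 8 to -0.35 in WT 7. WT 7 was thus the lowest culture for Grin2d and the highest for Grin1. Grin2a and Grin2b were not detected, and Grin2c was detected on 4 arrays. All 4 AMPA receptor genes, Gria1, Gria2, Gria3 and Gria4, were not detected. The kainate subunit Grik5 averaged 3.67 ± 0.44 (SD, n = 5), and the metabotropic receptors Grm2 and Grm6 averaged 0.82 ± 0.43 and 3.06 ± 0.18.

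Inhibitory receptors were represented by 3 of 22 genes, 13.6% beside 32.1% of all genes. Glra2, the glycine receptor subunit of immature neurons, read 4.98, 5.12, 4.49, 4.76 and 4.77 in WT 3, WT 5, WT 6, WT 7 and WT 8, a span of 1.55-fold. Its companion Glrb was not detected. Gabrq, a subunit of GABA type A receptors, averaged 0.55 ± 0.37 (SD, n = 5), and the alpha, beta and gamma subunits of these receptors were not detected. Gabbr1, which forms the GABA type B receptor with Gabbr2, read 2.20 in WT 3 and 0.39, 0.03, 0.43 and 0.78 in the others, but on its other probe WT 3 lay 0.11 below the mean of the others, so the high value of WT 3 belongs to 1 of its 2 probes. Gabbr2 was not detected. Of 21 acetylcholine receptor genes, Chrna1 and Chrnb4 were expressed, and the 5 muscarinic receptors were not detected.

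The purinergic lists held 4 expressed genes of 18, P2rx4, P2ry2, P2ry6 and Adora2b. This was 22.2%, beside 32.1% of all genes. P2ry6, a receptor for uridine diphosphate, read -1.28 in WT 3 and 0.32, -0.28, 0.56 and -0.14 in WT 5, WT 6, WT 7 and WT 8. Without WT 3, the low culture, the SD was 0.39 in place of 0.71.

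Of 26 growth factor receptor genes 13 were expressed, 50% beside 32.1% of all genes. Among them were Fgfr1, Egfr, Erbb2, Igf1r, Met, Kit, both TGF-beta receptors Tgfbr1 and Tgfbr2, the BMP receptors Bmpr1a and Bmpr2, and Il6st with Lifr, which together bind leukaemia inhibitory factor. Met, the receptor of hepatocyte growth factor, averaged 4.35 ± 0.18 (SD, n = 5) and Fgfr1 4.55 ± 0.51. Il6st read 4.07, 4.63, 4.48, 5.26 and 4.38 in WT 3, WT 5, WT 6, WT 7 and WT 8, and Lifr -0.15, -1.66, -0.49, -0.86 and -1.51, so that WT 3 was the lowest culture for Il6st and the highest for Lifr.

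The receptors of the neurotrophic factors for dopamine neurons were not detected. These are Ret and its coreceptors Gfra1, Gfra2, Gfra3 and Gfra4, which bind the GDNF family, and Ntrk2 and Ntrk3, which bind neurotrophins. Several of the ligands were expressed instead. Nrtn (neurturin) read 2.28, 1.93, 0.89, 1.84 and 1.43 in WT 3, WT 5, WT 6, WT 7 and WT 8, and Artn (artemin), also of the GDNF family, averaged 1.67 ± 0.15 (SD, n = 5). Gdnf and Pspn were not detected. Bdnf was detected on the 4 arrays other than WT 7, from -2.04 in WT 3 to -0.14 in WT 8. Of the 20 trophic factor genes 10 were expressed, 50% beside 32.1% of all genes.

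The channel lists hold the channels of electrical excitability along with other channels and ion pumps. Over all of them 27 of 145 genes were expressed, 18.6% beside 32.1% of all genes. Of the 13 genes of voltage-gated sodium channels 0 were expressed, and none of the 9 pore-forming subunits was detected on any array. Scn2b, an accessory subunit, was detected on 1 array. Of the 18 calcium channel genes 4 were expressed. Cacna1i, a pore-forming subunit of low-voltage-activated T-type channels, read 0.09, 0.17, 0.30, 0.21 and 0.28 in WT 3, WT 5, WT 6, WT 7 and WT 8, a span of 1.15-fold, although its second probe spanned 0.73 on the log2 scale. The accessory subunit Cacnb3 averaged 3.83 ± 0.39 (SD, n = 5). Cacna1d, the L-type subunit associated with pacemaking of midbrain dopamine neurons, was not detected.

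Of the 32 genes of voltage-gated and calcium-activated potassium channels 3 were expressed, Kcnd1, Kcnh3 and Kcnn3. Of the 28 genes of inward rectifiers and leak channels 4 were, Kcnj12, Kcnj14, Kcnk5 and Kcnk6. Kcnk5 read 2.08, 2.01, 2.19, 2.92 and 2.04 in WT 3, WT 5, WT 6, WT 7 and WT 8, high in WT 7 and within 0.18 in the other 4. Kcnj6, a G protein-gated channel that marks many midbrain dopamine neurons, and the subunits Kcnj8, Kcnj11, Abcc8 and Abcc9 of the channels gated by ATP were not detected. Of the pacemaker channels, Hcn2 and Hcn3 were not detected and Hcn4 was detected on 1 array.

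Of the 35 genes of HCN, TRP, Piezo and chloride channels 9 were expressed, 25.7% beside 32.1% of all genes, and their median SD was 0.30, as over all expressed genes. Piezo1, which opens on membrane stretch, read 4.52, 4.42, 4.09, 4.28 and 4.36 in WT 3, WT 5, WT 6, WT 7 and WT 8. Trpm7, a magnesium-permeable channel, averaged 5.13 ± 0.17 (SD, n = 5), and Trpv4, which responds to osmotic swelling, 2.92 ± 0.33. Among the pumps, Atp2a2, the calcium pump of the endoplasmic reticulum, averaged 5.56 ± 0.11. Atp1b3 read 2.45 in WT 3 and 4.26, 3.88, 3.94 and 4.04 in the others, and Slc12a2, which brings chloride into the cell, 0.80 and 2.16, 2.05, 1.93 and 2.11. In both, the culture that was low was WT 3. Slc12a5, which exports chloride from mature neurons, was detected on 1 array.

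Of the metabolic genes 59 of 94 were expressed, 62.8%, beside 32.1% of all genes. In glycolysis 16 of 26 isoforms were expressed, with all 3 phosphofructokinases (Pfkl, Pfkm and Pfkp), the ubiquitous enolase Eno1 beside Eno2 and Eno3, and Pkm. Of the hexokinases Hk1 and Hk2 were expressed, and Hk3 was not detected. Hk1, the form of most brain cells, read -1.85, -0.34, 0.27, 1.01 and -0.61 in WT 3, WT 5, WT 6, WT 7 and WT 8. Hk2, which is inducible and typical of growing cells, read 1.63, 1.96, 1.88, 1.89 and 2.08 in the same order. The cultures differed by 7.23-fold in Hk1 and by 1.37-fold in Hk2, and each gene was read by a different number of probes, 1 and 2. WT 3 was the lowest in both. Its Hk1 value was near the lowest level detected on that array, -2.20, and the other cultures read -0.61 to 1.01.

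The phosphofructokinases differed in spread as well. Pfkp averaged 5.26 ± 0.23 (SD, n = 5), while Pfkl and Pfkm were highest in WT 3, at 2.05 against 0.19 to 1.11 and at 2.64 against 1.23 to 1.64. Ldha, the lactate dehydrogenase subunit favoured in glycolytic cells, read 8.53, 7.78, 8.57, 9.49 and 7.93 in WT 3, WT 5, WT 6, WT 7 and WT 8. WT 7 was the highest on this probe, but on the other 2 probes of Ldha WT 3 was, at 8.04 against 7.12 to 7.76 and at 5.44 against 4.76 to 4.96. All 5 cultures expressed it, while Ldhb and Ldhc, the other subunits, were not detected. Of the glucose transporters Slc2a1 was expressed at 3.34 ± 0.21, with Slc2a6, Slc2a8 and Slc2a12, and Slc2a3, the neuronal transporter, was not detected. The lactate transporters Slc16a1, Slc16a3 and Slc16a7 were all expressed. Slc16a3, which exports lactate, was highest in WT 3 at 5.46 against 4.20 to 4.80, and Slc16a7, which has a high affinity for pyruvate, was lowest there at -0.66 against 0.02 to 1.30.

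In the respiratory chain 11 of 16 measured isoform genes were expressed. Cytochrome c oxidase has subunits with a ubiquitous and a tissue-restricted form, and for several of them both were expressed. Cox4i1 averaged 7.92 ± 0.26 (SD, n = 5), and Cox4i2, the form linked to low oxygen, read 2.90, 2.07, 2.21, 1.91 and 2.70 in WT 3, WT 5, WT 6, WT 7 and WT 8. Cox6a1 averaged 8.85 ± 0.20, and Cox6a2, the form of heart and muscle, read 0.03 in WT 3 and 2.47, 1.67, 2.47 and 2.16 in the other cultures. WT 3 was thus below the others by 1.65 or more in Cox6a2 and the highest in Cox4i2. Cox6b1 and Cox6b2 were both expressed, while Cox7b2, Cox8b, Cox8c and Ndufa4l2 were not detected.

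Of the adenine nucleotide carriers, which exchange ADP and ATP across the inner membrane, Slc25a4 and Slc25a5 were expressed. Slc25a5, the form of dividing cells, averaged 5.32 ± 0.13 (SD, n = 5). Slc25a4, the form of heart and muscle, read 5.48 in WT 6 and 5.35 in WT 7, the arrays of slide 3, and 4.23, 4.35 and 4.38 in WT 3, WT 5 and WT 8. These values do not overlap by slide 3 against the rest, and the part of the slide was not tested. Both arrays of slide 3 lay above the rest in 2243 of the 11614 expressed genes and below the rest in 1688. Of the uncoupling proteins Ucp2 was expressed, at 0.69 ± 0.37, and Ucp1 and Ucp3 were not detected. All 3 channels of the outer membrane were expressed. Vdac1, the gene removed in the other cultures of the study, read 5.93, 5.37, 5.33, 5.43 and 5.29 in WT 3, WT 5, WT 6, WT 7 and WT 8, with WT 3 the highest on this probe but not on its other 2 probes. Vdac2 averaged 6.19 ± 0.53 and Vdac3 5.47 ± 0.38.

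The pyruvate dehydrogenase kinases, which switch off pyruvate oxidation, were expressed as Pdk1, Pdk2 and Pdk3, while Pdk4 was not detected. Pdk2 read 1.57, 1.50 and 1.60 in WT 3, WT 6 and WT 7, against 0.40 in WT 5 and 0.39 in WT 8, which is the split of the cultures seen for Col1a1. The creatine kinases Ckb, Ckm and Ckmt2 were not detected, and Ckmt1 was detected on 2 arrays. Got1, an aspartate aminotransferase of the cytosol, read 0.60 in WT 3 and 2.64, 2.88, 3.12 and 2.73 in the others, and Cpt1a, which admits fatty acids to mitochondria, -0.35 and 1.74, 1.41, 1.74 and 1.21. WT 3 was low by more than 1 in both.

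In the list of parkinsonism genes and synucleins 7 of 14 were expressed, 50% beside 32.1% of all genes, among them Pink1, Park7, Fbxo7, Vps35, Pla2g6 and Synj1. Pink1, the kinase that marks damaged mitochondria, read 0.12, 0.59, 1.15, 1.68 and 0.73 in WT 3, WT 5, WT 6, WT 7 and WT 8, a span of 2.95-fold, or 1.56 on the log2 scale, where its second probe spanned 0.82. Park7, which encodes DJ-1, read 6.78, 5.66, 6.14, 5.90 and 6.09 in the same order. WT 3 was lowest for Pink1 and highest for Park7. Sncg, Lrrk2 and Dnajc6 were not detected on any array. Sncb was detected on 2 arrays and Atp13a2 on 3.

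The spread between the cultures was then described over the 11614 expressed genes. The median SD of a gene was 0.30, from 0.15 at the 10th to 0.56 at the 90th percentile. In 3201 genes, 27.6%, the highest and the lowest culture differed by more than 2-fold, and in 263 by more than 4-fold. Without WT 3 the median SD was 0.23 and 1316 genes, 11.3%, exceeded 2-fold. Without both WT 3 and WT 7 the median SD was 0.18. Dim genes varied more, with a median SD of 0.34 in the lower tercile of levels and 0.27 in the upper. For the 1077 probes printed as 10 spots, the median SD between single spots of 1 array was 0.07 to 0.20, highest on WT 7. That between the cultures was 0.27, for levels averaged over the spots. The spot values are thus larger than the spot noise of such an averaged level.

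The 20 genes with the widest range were taken among expressed genes with a RefSeq symbol, with predicted and unnamed features left out. Of these, 13 were lowest and 5 were highest in WT 3. Mgp, an inhibitor of calcification secreted into the matrix, read -1.39, 3.72, 1.76, 4.13 and 2.53 in WT 3, WT 5, WT 6, WT 7 and WT 8, a span of 45.8-fold. The low end of this span is WT 3, and the others read 1.76 to 4.13. Il33, an alarmin cytokine, read -1.46 in WT 3 and 2.51, 2.17, 3.09 and 2.52 in the others. Cdkn1c, an inhibitor of cyclin-dependent kinases, was at the other end, at 3.93 in WT 3 and 0.32, -0.56, 0.70 and -0.09 in the others. The rest of the widest genes in which WT 3 was lowest were Pitpnc1, Wfdc18, Cxcl11, Ccn5, Gpnmb, Ccn2, Areg, Smoc1, Ccl7, Abca1 and Sulf2.

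Some of the widest genes varied among the other cultures. Arid3a, a DNA-binding protein, read 2.80, 2.70 and 2.34 in WT 3, WT 5 and WT 8, against -0.58 in WT 6 and -0.04 in WT 7. Abca12, a lipid transporter, read 3.78, 3.18 and 2.65 in the same 3 against 0.83 and 0.68. Apcdd1l was also lower in WT 6 and WT 7, at -0.29 and 1.86, than in the others, at 3.44 to 4.45. Over all expressed genes, WT 6 and WT 7 together lay more than 1 above the other 3 arrays in 29 genes and more than 1 below in 9, 0.327% in all. By any margin, WT 6 and WT 7 lay above the other 3 arrays in 2243 and below them in 1688 of the 11614 expressed genes. They shared slide 3 and the later scan, so culture, slide and scan cannot be told apart here. Celsr1, a cadherin of planar polarity, was low in WT 5 alone, at 0.16 against 2.32 to 3.61. Foxe1 was low in WT 8 alone, at -1.80 against 0.41 to 1.30. Alkbh6 was low in WT 7 alone, at 0.20 against 2.14 to 3.38, but its second probe, also detected on all arrays, spanned 0.41 with WT 7 the highest, so the low value belongs to 1 of its 2 probes.

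**Figure D4:**
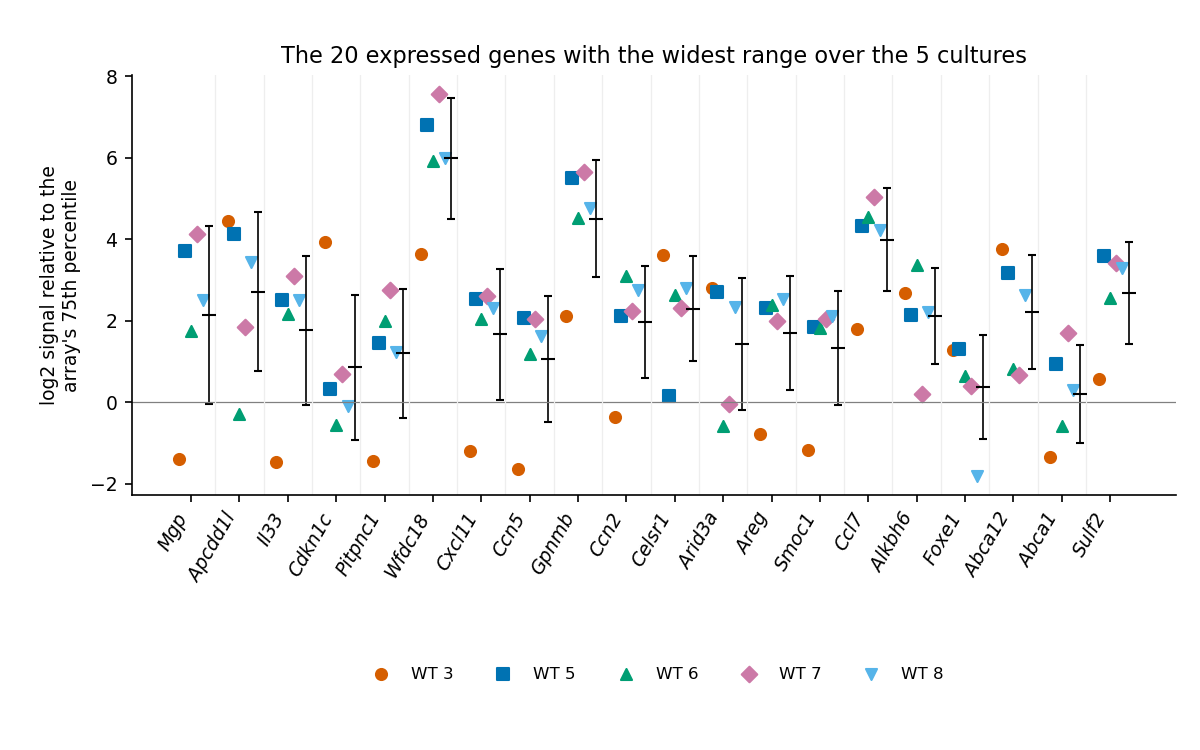
Log2 level relative to each array's 75th percentile for the 20 expressed genes with the widest range, predicted and unnamed features left out, 1 point per culture, with mean ± SD; genes were chosen for this range. WT 3 is the lowest point in 13 genes and the highest in 5, while Celsr1 and Foxe1 have their lowest point in WT 5 and WT 8, and Alkbh6 in WT 7 on the plotted probe, 1 of 2.

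The gene lists below were written with earlier results of the data known and their values are a description. WT 3 was the highest culture for 19 of the 21 expressed genes of sterol synthesis and uptake, with a median difference of 1.18 from the mean of the others, whereas over all expressed genes WT 3 was the highest in 38.1% and the median difference was 0.10. Insig1, which restrains the sterol sensor, read 4.21 in WT 3 and 2.29, 2.33, 2.22 and 2.32 in the others. Hmgcs1, an early enzyme of the pathway, read 5.27 and 3.27, 3.18, 3.47 and 2.90, and Dhcr7, the last, 2.33 and -0.01, -0.05, 0.39 and 0.27. In each of these the 4 other cultures lay within 0.57 of each other. Srebf2, the transcription factor of the pathway, read 4.26 in WT 3 against 2.92 to 3.12. Genes of fatty acid synthesis were also highest in WT 3 in 9 of 11 cases, with a median difference of 0.76. Elovl6, an elongase, read 2.52 in WT 3 against -0.01 to 0.49. Of the 24 sterol genes, 16 had a promoter window. The sterol regulatory element TCACNCCAC, searched on both strands, was found in 0 of these 16 windows and in 1.12% of all windows. With so low a share, 16 windows cannot tell this list from all windows, and nothing is read from the 0.

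Cell cycle genes were expressed in 23 of 24 cases, 95.8% beside 32.1% of all genes, with Ccnd1 detected on 1 array. WT 3 was the highest culture for 13 of the 23, with a median difference of 0.48. Over all expressed genes it was the highest in 38.1%, with a median difference of 0.10. The mitotic kinases Aurka and Plk1 read 4.18 and 5.12 in WT 3 against 2.64 to 2.80 and 3.49 to 3.86 in the others. Pcna, the sliding clamp of DNA replication, did not stand apart, at 5.10 in WT 3 and 5.07 to 5.37 in the others.

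In cytokines and chemokines WT 3 was the lowest culture in 10 of 13 expressed genes, with a median difference of -0.85, against 25.2% of all expressed genes in which it was the lowest. All of Ccl2, Ccl5, Ccl7, Ccl20, Cxcl1, Cxcl2, Cxcl3, Cxcl10 and Cxcl12 were expressed in each of the 5 cultures. Ccl2, which attracts monocytes, read 6.37, 7.36, 7.34, 6.98 and 7.20 in WT 3, WT 5, WT 6, WT 7 and WT 8. Ccl7 read 1.80 in WT 3 and 4.33, 4.55, 5.05 and 4.22 in the others, and Cxcl2, which attracts neutrophils, 2.42 and 4.21, 4.84, 3.74 and 4.54. Il6, Il1a, Il1b and Il18 were not detected. Immediate early genes were lowest in WT 3 in 9 of 11 cases, with a median difference of -0.46. Fosl1, a subunit of the AP1 factor, read -0.08 in WT 3 and 2.48 to 2.88 in the others, and Egr1 2.29 against 3.09 to 3.53.

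Interferon-stimulated genes were expressed in 19 of 22 cases, 86.4% beside 32.1% of all genes, in cultures with no treatment in the labels. They did not move as 1 group. Rsad2, an antiviral enzyme, read 4.24 in WT 3 and 5.47, 5.30, 5.77 and 5.45 in the others, and Usp18, which removes ISG15 from proteins, 1.18 and 2.71, 2.25, 3.06 and 2.51. The immunoproteasome subunits Psmb8 and Psmb9 ran the other way, at 5.92 and 5.38 in WT 3 against 4.65 to 4.77 and 3.36 to 4.02. The list's median difference was -0.26. Genes of the integrated stress response were expressed in 21 of 23 cases (91.3%) and hypoxia-inducible genes in 15 of 18 (83.3%), with median differences of -0.31 and -0.08.

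**Figure D5:**
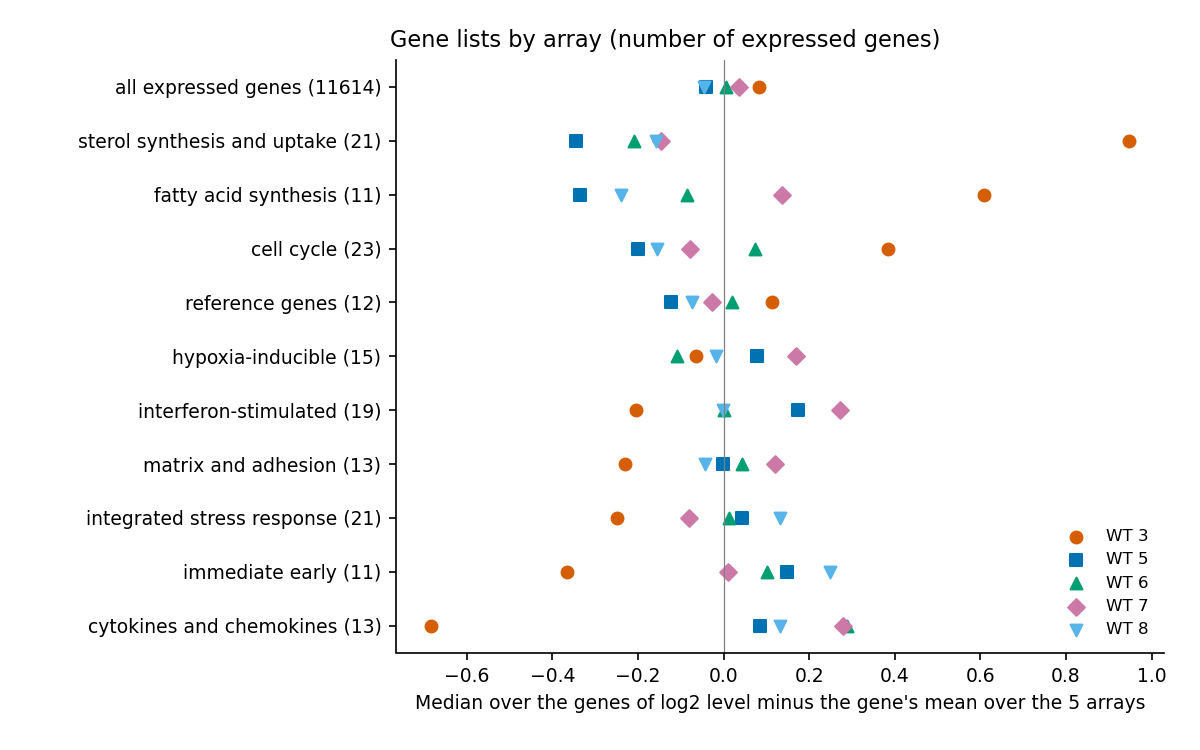
Median, over the expressed genes of each list, of the log2 level minus the gene's own mean over the 5 arrays, 1 point per array, with the number of genes in parentheses and all 11614 expressed genes at the top. WT 3 lies to the right for sterol synthesis, fatty acid synthesis and cell cycle and to the left for cytokines and immediate early genes.

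Several technical values were set beside the position of WT 3. Its brightness, 54.5, lay in the middle of the 5. The signal of upstream minus downstream probes was taken for 590 transcripts with probes at least 500 bases apart, and centred on each transcript's mean over the 5 arrays. Its median was -0.05 in WT 3 and in WT 7, and 0.01, 0.03 and 0.07 in WT 5, WT 6 and WT 8. As a centred value it compares RNA integrity between the arrays and does not show how intact the RNA was. Among the 12 reference genes, all expressed, the median difference of WT 3 from the others was 0.14. Their part in the differences of WT 3 was not tested.

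With predicted and unnamed features again left out, the steadiest genes with a level above 0 were Uqcrb, Oxct1, Prpsap1, Nfib, Ube2d3, Kdm5c, Cyld, Larp4, Rasl11a and Prdx4. Uqcrb, a subunit of respiratory complex III, read 5.84, 5.84, 5.83, 5.82 and 5.80 in WT 3, WT 5, WT 6, WT 7 and WT 8, within 1.03-fold. Oxct1, which uses ketone bodies, varied within 1.05-fold. Other probes of some of these genes, also detected on all arrays, spanned more, at 1.27 and 0.96 for Nfib, 0.57 for Kdm5c, 0.27 and 1.09 for Cyld and 0.68 and 1.25 for Larp4. Of the common reference genes Ppia varied within 1.26-fold, while Actb read 7.12, 6.77, 7.79, 7.67 and 7.04 in WT 3, WT 5, WT 6, WT 7 and WT 8, a span of 2.03-fold, and Tfrc, the transferrin receptor, 3.34, 3.11, 4.49, 4.31 and 3.37, with both arrays of slide 3 high in each. Both arrays of slide 3 lay above the others in 2243 of all 11614 expressed genes.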

How the data were processed

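The data are 5 wild-type arrays of 12. Per the labels, the RNA came from a Trizol extraction. The submitters' processing notes name Agilent Feature Extraction 10.7 and the file headers 10.1.1.1. Per the file headers, the deposited scanner columns are intensity on a linear scale (processed, mean and background signal), and the other deposited columns used are flags that take the values 0 and 1. The authors' deposited value table holds log2 values that were quantile-normalized, as its columns have identical sorted values. It has a median of 3.06 in each column, a floor of 1.5 and a Spearman correlation of 0.999 with the scanner signal, and served as an alternative.

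From the scanner files, 360 to 643 spots per array with an unevenness or outlier flag were left out, spots of a probe were averaged as log2 processed signal, and the 75th percentile over probes was subtracted. The probe with the highest mean stood for a gene name. A probe counted as well above background where a share above 0.5 of its spots had that flag. Probes were named through RefSeq's rat gene table (GRCr8), with 21109 matched on accession, 6684 on symbol, 424 on synonym and 17381 left under their file name. Python 3.11.15, pandas 2.3.3, R 4.3.3 and limma 3.58.1 (normexp, an alternative) were used. The calculation of the spread was tested on simulated data. No test between samples was made, since the arrays are 1 group. No array was duplicated.

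Named are the 6 markers, members of 42 gene lists by role (754 of 764 genes were measured), members of isoform families, the 20 widest and the 10 narrowest genes. The widest and narrowest were taken among expressed genes with a RefSeq symbol, with predicted, unnamed, RT1, olfactory receptor and pseudogene entries left out. Some genes of these lists are not reported here. Members and lists were chosen with earlier results of these data known. The number of arrays limits the precision. Alternatives were other background corrections, scalings, detection rules and probes, and leaving out each array.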

Additional observations from a re-analysis of the deposited data

Results flagged for a closer look

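In 32 of the genes named here, 1 culture lay apart from the other 4, by Dixon's ratio of the gap to the nearest culture over the whole range, with a critical value of 0.71 for 5 samples. Chance flags about 1 in 20 groups, and over all expressed genes the ratio was exceeded in 9.32%, so the count describes genes that were in part chosen for their spread. WT 3 was the culture apart in most of them.

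WT 3 was the highest, with the ratio after each name, in Insig1 (0.947), Psmb8 (0.903), Aurka (0.898), Gchfr (0.897), Aldh1a1 (0.855), Srebf2 (0.850), Dhcr7 (0.816), Elovl6 (0.801), Plk1 (0.777), Vdac1 (0.774, on 1 of its 3 probes), Hmgcs1 (0.758), Cdkn1c (0.718) and Pfkm (0.710). It was the lowest in Smoc1 (0.908), S100a4 (0.903, on 1 of its 2 probes), Fosl1 (0.863), Cxcl11 (0.851), Areg (0.843), Slc12a2 (0.833), Got1 (0.810), Il33 (0.798), Atp1b3 (0.792), Ccn5 (0.760), Ndrg1 (0.749), Ccl7 (0.746), Cpt1a (0.744), Hes1 (0.739), Fn1 (0.719) and Ccn2 (0.717). WT 7 was the highest in Kcnk5 (0.803) and Chrnb4 (0.741). WT 8 was the lowest in Foxe1 (0.712).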

How the results depend on the processing

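The count of genes not detected fell to 7279 where a probe was called by a positive and significant signal in place of the stricter flag, while 15410 genes were then expressed. Scaling to each array's median gave a median SD of 0.38 and 4969 genes with a range above 1. Over all genes, detected or not, these were 0.55 and 26186, and the mean correlation of WT 3 with the others was 0.971. Leaving out WT 3 gave 1316 genes with a range above 1, and leaving out any other array 2156 (without WT 7) to 3013. Without WT 3 and WT 7 together, chosen after the data were seen, the median SD was 0.18 and 484 genes had a range above 1. On 4 of 5 arrays, 2 midbrain transcription factors and 2 epithelial genes counted as expressed. Other detection rules, normexp, quantile normalization, the deposited value table, keeping flagged spots, and the 75th percentile over spots (also chosen after the data were seen) kept these counts within 1.5 times. Of 148 named levels, 89 moved by more than their SD under normexp and 0 under quantile normalization or without any 1 array. With the 75th percentile over spots every level is lower, by 2.32, 2.22, 2.26, 2.27 and 2.22 in WT 3, WT 5, WT 6, WT 7 and WT 8. The height of a level thus depends on this choice. No paired analysis was possible because the arrays are 1 group. Detection is limited by signal over background on the dimmest array, WT 7.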

Other observations

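Genes of stress responses and of the matrix were expressed in these unedited cultures too. Atf4, the transcription factor of the integrated stress response, averaged 7.03 ± 0.19 (SD, n = 5), and its partner Ddit3 5.27 ± 0.43. Slc7a11, the cystine importer, read 1.82, 3.18, 3.05, 1.83 and 3.30 in WT 3, WT 5, WT 6, WT 7 and WT 8. Sesn2, a stress-inducible regulator of growth, was lowest in WT 3, at -1.93 against -0.62 to 0.02. Of the hypoxia-inducible genes, Adm (adrenomedullin) averaged 6.20 ± 0.25 and Vegfa 2.70 ± 0.21. Ndrg1 read 0.82 in WT 3 and 1.90 to 2.27 in the others. In the list of matrix and adhesion genes 13 of 20 were expressed, 65% beside 32.1% of all genes. Timp1, an inhibitor of metalloproteinases, averaged 5.26 ± 0.13 and the integrin chain Itgb1 6.62 ± 0.18, and Mmp3, Mmp9, Thbs1, Lama1 and Vcan were not detected. Il11, a cytokine that signals through Il6st, read -0.59, 0.73, 2.15, 1.81 and 1.24 in WT 3, WT 5, WT 6, WT 7 and WT 8.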
